A study of Homo sapiens with 18 samples.

Results

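The 10 genes described here are KLF2, KLF3, KLF4, KLF5, KLF6, KLF7, KLF9, KLF10, KLF11 and KLF13, which encode Krüppel-like factors (KLF). They were taken by symbol from the counts of 18 RNA-seq libraries, and are 10 of the 60642 symbols listed. The libraries come from MDA-MB-231 cells, an established mesenchymal line of triple-negative breast cancer that makes the glucocorticoid receptor (GR). Cells received a non-specific siRNA pool (siNS), a pool against CBX3, the gene of the heterochromatin protein HP1γ (siHP1γ), or a pool against the arginine methyltransferase PRMT5 (siPRMT5). Each was then given the synthetic glucocorticoid (GC) dexamethasone (Dex) at 100 nM or the vehicle ethanol (Eth) for 8 h, which makes 6 conditions with 3 replicates each. All conditions therefore share a transfection and a treatment, every depletion rests on 1 siRNA pool, and all results are from 1 cell line.

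KLF proteins are transcription factors that bind GC-rich boxes and CACCC boxes through zinc fingers at their C-terminal end. Their N-terminal parts differ and sort the family by partner. KLF2, KLF4, KLF5, KLF6 and KLF7 work mostly with acetyltransferases such as p300 and CBP, KLF3 recruits the corepressor CtBP, and KLF9, KLF10, KLF11 and KLF13 recruit the corepressor SIN3A. Several family members respond to hormones within hours, and KLF9 is a GR target gene in many tissues.

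The siRNA targets and GC markers followed the labels. PRMT5 mRNA was at 249 ± 19.96 CPM (counts relative to a TMM-scaled library total, mean ± SD, n = 3) in siNS Eth and at 7.41 ± 1.17 CPM in siPRMT5 Eth, and CBX3 mRNA was at 256 ± 20.1 CPM in siNS Eth and at 9.89 ± 0.657 CPM in siHP1γ Eth. TSC22D3, a classical GC-induced gene, was at 19.0 ± 1.02 CPM with Eth and 236 ± 36.7 CPM with Dex in siNS cells. VIM, CD44, AXL, CAV1, FN1 and NR3C1 (the GR gene) were all expressed, while ESR1, PGR, CDH1 and PTPRC had at most 2 counts in a library. GATA3 and FOXA1 were low, with condition means between 2.90 and 9.99 CPM. NR3C1 mRNA stood between 127 and 167 CPM in the 6 conditions. Library totals were 8682992 to 12472381 counts (median 10020976.5), and the spread within a condition was above counting noise (chi-square per degree of freedom 2.10 to 12.3). All 10 KLF genes were among the 15298 genes that passed the filter on low counts and entered 1 edgeR fit, with counts per library from 21 to 58 for KLF13 and from 2605 to 7089 for KLF6.

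Divided by exonic length (GENCODE 44 on hg38), KLF6 was the highest of the 10 genes in all 6 conditions and KLF13 the lowest. In siNS Eth, KLF6 stood at 67.5 ± 3.20 CPM per kb, followed by KLF4 (30.2), KLF10 (15.7), KLF3 (10.6), KLF5 (7.42), KLF11 (4.05), KLF9 (3.11), KLF2 (2.68), KLF7 (1.17) and KLF13 (0.275). The libraries of no neighbouring pair in that order overlapped. With Dex, KLF9 moved from the seventh place to the third in siNS and siPRMT5 cells, at 22.02 CPM per kb in siNS cells and 28.0 in siPRMT5 cells, and from the eighth to the fourth in siHP1γ cells, at 12.96. Per kb, KLF7 passed KLF2 with Dex in siNS and siPRMT5 cells, while in siHP1γ Dex the libraries of KLF7 (2.84) and KLF2 (2.13) overlapped. The order between genes rests on the length of all annotated exons (9.616 kb for KLF7, 2.82 kb for KLF2), whichever transcripts are made. Before that division, KLF7 (mean 11.2 CPM) was already above KLF2 (7.56 CPM) in siNS Eth. KLF11 moved down, from 4.05 in siNS Eth to 1.995 in siPRMT5 Eth and 1.58 in siPRMT5 Dex. These levels are from bulk RNA, in which fewer cells making an mRNA and less of it per cell cannot be told apart.

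**Figure D1:**
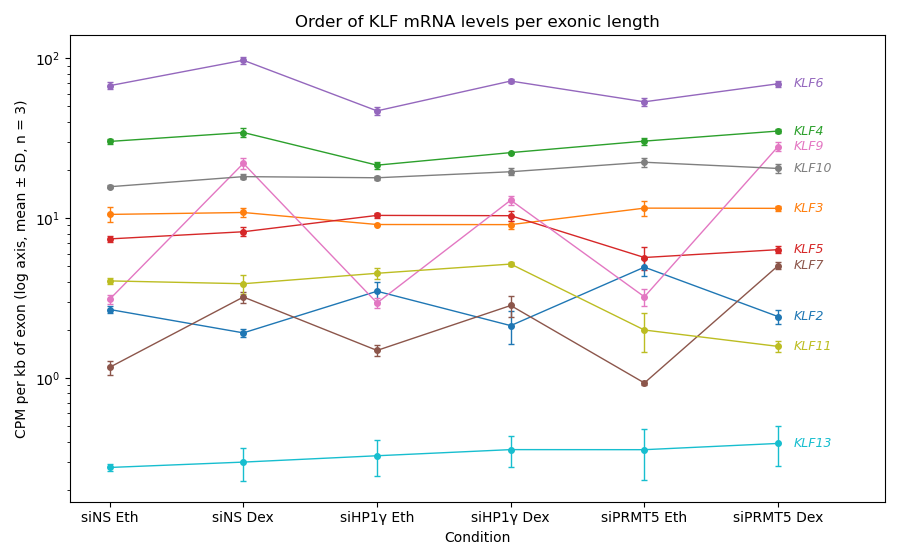
Level of each KLF mRNA (y axis, CPM per kb of exon, log scale, mean ± SD of 3 libraries) in the 6 conditions (x axis), with a line joining the values of 1 gene. KLF6 is at the top and KLF13 at the bottom throughout, KLF9 climbs with Dex in all 3 kinds of cells, and KLF11 falls in siPRMT5 cells.

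**Figure D2:**
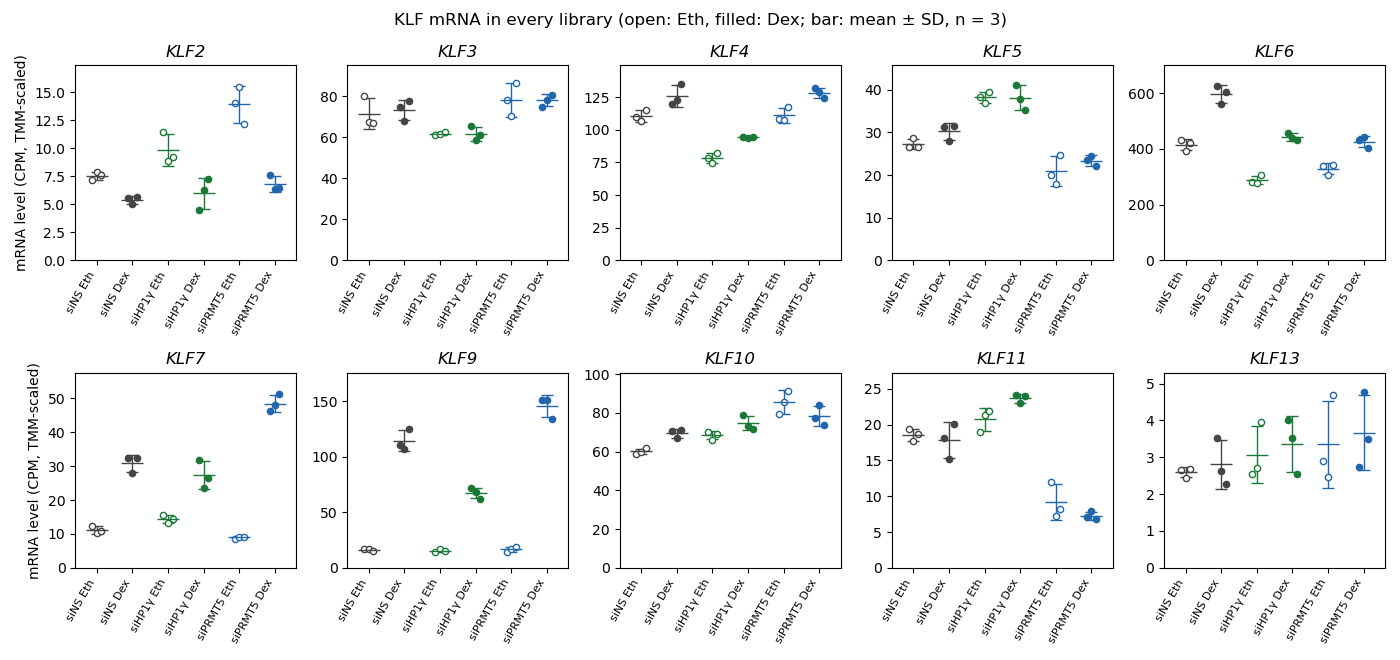
Level of each of the 10 KLF mRNAs (y axis, CPM) in each library of the 6 conditions (x axis), with open points for Eth, filled points for Dex and bars for the mean ± SD (n = 3). KLF2, KLF4, KLF6, KLF7 and KLF9 separate Dex from Eth in all cells, with the largest folds for KLF9 and KLF7. KLF11 separates siPRMT5 cells from the others.

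KLF9 was the member with the largest response. The gene sits on the minus strand of chromosome 9 (hg38, 70384604 to 70414657), with no other annotated gene over it. In siNS cells the 3 libraries had 16.8, 16.7 and 15.02 CPM with Eth and 111, 107 and 125 CPM with Dex. In siHP1γ cells they had 14.2, 16.6 and 15.2 CPM with Eth and 71.6, 68.2 and 62.4 CPM with Dex. In siPRMT5 cells they had 14.5, 17.3 and 18.5 CPM with Eth and 151.5, 151.5 and 134 CPM with Dex. The Eth libraries of the 3 kinds of cells thus overlapped, while with Dex the 3 kinds of cells did not overlap, with siHP1γ lowest and siPRMT5 highest. The increase was 7.09-fold in siNS cells (log2 2.82, standard error 0.0980, adjusted p = 2.79e-17), 4.39-fold in siHP1γ cells (log2 2.13, standard error 0.0987, adjusted p = 1.75e-14) and 8.70-fold in siPRMT5 cells (log2 3.12, standard error 0.0977, adjusted p = 1.55e-18).

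A sequence search around the start of each gene is given with these values because KLF9 is known as a GR target, though GR binding was not measured in the files used here. The search was for the palindromic GR element written GNACANNNTGTNC, which reads the same on both strands, within 10000 bases on either side of the annotated gene start. KLF9, KLF3, KLF5, KLF6 and KLF10 each had 1 match, so 5 of the 10 genes, beside 22.8% of 20007 protein-coding genes, and the other 5, KLF7 among them, had none. The KLF9 match lies 5475 bases upstream, at chr9:70420126-70420138. Those of KLF3 and KLF5 lie 2051 and 2922 bases upstream, at chr4:38662140-38662152 and chr13:73052048-73052060, and that of KLF6 lies 8481 bases downstream of the start, at chr10:3776794-3776806. Of the genes with a match, KLF9 passed the threshold with Dex in all cells and KLF6 in siHP1γ cells only. KLF3, KLF5 and KLF10, which each have a match too, did not pass it in any cells. Of the genes with no match in the stretch searched, KLF7 passed it in all cells. KLF2 was lowered past it in siHP1γ and siPRMT5 cells, and KLF4, KLF11 and KLF13 did not pass it in any. The search used 1 annotated start per gene, and a KLF7 promoter window described below (chr2:207134088-207134387) lies outside that stretch. Whether a match bears on the Dex response was not tested. The stretches below are hg38 sequence on the strand of the gene, with the 13 bases of the element in capitals.
KLF9: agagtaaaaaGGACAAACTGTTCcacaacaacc
KLF6: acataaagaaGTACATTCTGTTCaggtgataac
KLF3: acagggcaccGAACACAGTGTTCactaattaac
KLF5: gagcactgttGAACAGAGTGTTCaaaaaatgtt

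None of the other genes that recruit SIN3A passed the threshold with Dex in any of the cells by edgeR or DESeq2, and KLF11 in siPRMT5 cells was the only one under an unadjusted p of 0.05 besides KLF10 in siNS cells. KLF10, induced early by TGF-β, had 58.9, 59.7 and 61.6 CPM in siNS Eth and 70.8, 66.9 and 70.9 CPM in siNS Dex, groups that do not overlap but differ by 1.16-fold (log2 0.21, standard error 0.0740, adjusted p = 0.0760). KLF11, a close relative of KLF10 that also responds to TGF-β, had 19.4, 17.7 and 18.6 CPM with Eth and 18.2, 15.3 and 20.1 CPM with Dex in siNS cells, and these overlap. In siPRMT5 cells, KLF11 had 12.02, 7.28 and 8.20 CPM with Eth and 7.04, 7.89 and 6.79 CPM with Dex, a log2 difference of -0.34 (standard error 0.160, adjusted p = 0.179) that ranged from -0.47 to -0.09 with 1 library left out. There, KLF10 had 79.5, 85.6 and 91.5 CPM with Eth and 77.2, 83.8 and 73.7 CPM with Dex, which overlap. KLF13, known from lymphocytes as an activator of chemokine expression, stayed between 2.27 and 4.77 CPM in the 18 libraries and overlapped between all pairs of conditions compared. Its standard errors, 0.249 to 0.389 on the log2 scale, are the widest of the 10 genes. In siNS cells the 95% interval of its Dex change was -0.50 to 0.74, so a rise or a fall within that range is compatible with these counts.

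Among the genes that work with acetyltransferases, KLF7, a factor best known from neurons, rose with Dex. The gene sits on the minus strand of chromosome 2 (207074137 to 207173856). The siNS libraries had 12.5, 10.4 and 10.8 CPM with Eth and 32.3, 28.0 and 32.3 CPM with Dex. The siHP1γ libraries had 15.5, 13.1 and 14.3 CPM with Eth and 31.9, 23.7 and 26.4 CPM with Dex. The siPRMT5 libraries had 8.59, 9.16 and 9.10 CPM with Eth and 46.2, 48.0 and 51.2 CPM with Dex. Dex and Eth libraries were apart in all cells, and siPRMT5 cells were both the lowest with Eth and the highest with Dex. The increase was 2.76-fold in siNS cells (log2 1.47, standard error 0.116, adjusted p = 5.72e-10), 1.92-fold in siHP1γ cells (log2 0.94, standard error 0.111, adjusted p = 1.29e-06) and 5.41-fold in siPRMT5 cells (log2 2.43, standard error 0.117, adjusted p = 1.20e-14). The gene overlaps MYOSLID, a non-coding gene on the other strand, whose median count was 0 in the Eth conditions and 5, 10 and 30 in siNS, siHP1γ and siPRMT5 cells with Dex. Without a stated strand setting, reads of the overlapping stretch cannot be assigned to one of them, and KLF7 itself had 78 to 584 counts.

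KLF2, a factor that keeps endothelial cells and T cells quiescent, was the member that fell with Dex. The siPRMT5 libraries had 14.1, 15.5 and 12.2 CPM with Eth and 7.62, 6.41 and 6.45 CPM with Dex, with no overlap, a 2.03-fold fall (log2 -1.02, standard error 0.151, adjusted p = 1.33e-05). The siHP1γ libraries had 11.5, 8.88 and 9.19 CPM with Eth and 4.49, 6.26 and 7.24 CPM with Dex, a 1.65-fold fall (log2 -0.72, standard error 0.158, adjusted p = 0.00423). In siNS cells, 7.18, 7.85 and 7.66 CPM with Eth stood against 5.56, 5.01 and 5.62 CPM with Dex, and the log2 difference of -0.48 (standard error 0.171, adjusted p = 0.0788) did not pass the threshold although the groups do not overlap. The call in siHP1γ cells was lost without siHP1γ Eth replicate 1 (log2 -0.60, adjusted p = 0.0520) or 3 (log2 -0.77, adjusted p = 0.0114), and without siHP1γ Dex replicate 1 (log2 -0.53, adjusted p = 0.0581) or 2 (log2 -0.75, adjusted p = 0.0136), and with the 6 siHP1γ libraries alone (log2 -0.72, adjusted p = 0.0323). KLF2 had 46 to 132 counts per library.

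KLF6, a widely expressed member induced early after tissue injury, had 430.3, 392 and 420.1 CPM in siNS Eth and 626, 562 and 605 CPM in siNS Dex. It had 280.0, 278 and 306 CPM with Eth and 458, 440.4 and 430.3 CPM with Dex in siHP1γ cells, and 338, 306 and 341 CPM with Eth and 431, 443 and 404 CPM with Dex in siPRMT5 cells. All Dex libraries were above the Eth libraries of the same cells. The increase was 1.54-fold in siHP1γ cells (log2 0.62, standard error 0.0664, adjusted p = 2.75e-07), and passed the threshold. It was 1.44-fold in siNS cells (adjusted p = 1.72e-06) and 1.30-fold in siPRMT5 cells (adjusted p = 0.000144), where the adjusted p was under 0.01 and the fold was under the 1.5 asked for. The Dex response of KLF6 did not pass the test of a difference from siNS cells in siHP1γ (adjusted p = 0.661) or siPRMT5 cells (adjusted p = 0.391).

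KLF4, one of the factors that reprogram cells to pluripotency, was 1.14-fold higher with Dex in siNS cells (adjusted p = 0.0887), 1.198-fold in siHP1γ cells (adjusted p = 0.0209) and 1.16-fold in siPRMT5 cells (adjusted p = 0.0338), none past the threshold. All Dex libraries of KLF4 were above the Eth libraries of the same cells. KLF5, which drives proliferation of basal epithelial cells, had 26.5 to 28.7 CPM in siNS Eth and 28.0 to 31.6 CPM in siNS Dex, which overlap. KLF3, the member that recruits CtBP, had 66.7 to 80.3 CPM in siNS Eth and 68.1 to 77.4 CPM in siNS Dex, which overlap too.

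Counted over the 10 genes, with an adjusted p under 0.01 and a fold of at least 1.5, Dex raised 2 (KLF7 and KLF9) and lowered 0 in siNS cells, beside 1.65% of all genes tested that were raised and 1.06% that were lowered. In siHP1γ cells 3 (KLF6, KLF7 and KLF9) were raised and 1 (KLF2) was lowered, beside 1.01% and 0.660%. In siPRMT5 cells 2 (KLF7 and KLF9) were raised and 1 (KLF2) was lowered, beside 2.69% and 2.75%. By edgeR, 6, 5 and 6 of the 10 genes had an unadjusted p under 0.05 in siNS, siHP1γ and siPRMT5 cells, beside 3420, 2753 and 4078 of the 15298 genes. In siNS cells the 1 member under that p that was lower was KLF2, and DESeq2 lowered 0 there too. The median log2 change of the 10 genes was 0.17, 0.16 and 0.15, beside medians within 0.004 of 0 over all genes. With a fold of at least 2, KLF9 alone of the 10 passed in siHP1γ cells.

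**Figure D3:**
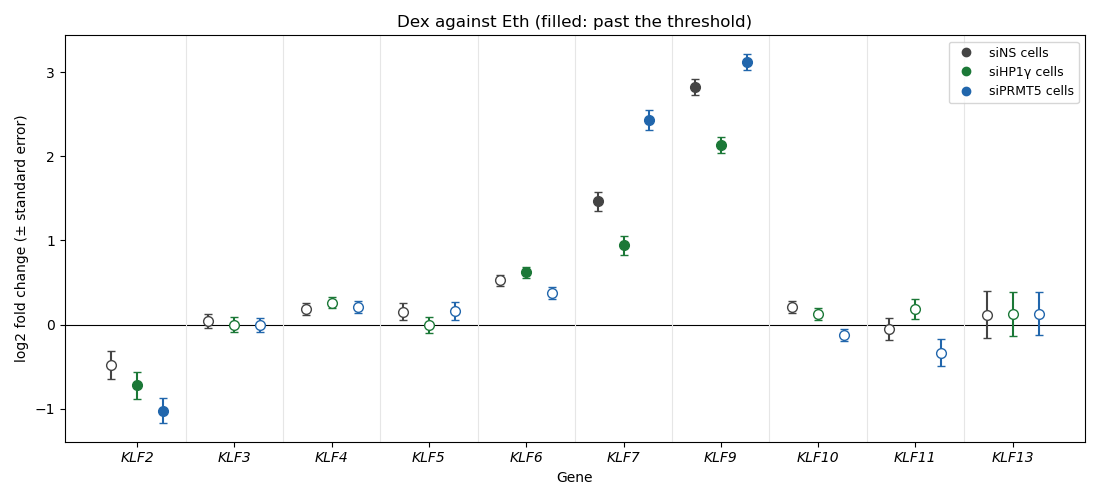
Log2 fold change of Dex against Eth (y axis, ± standard error derived from the edgeR F statistic) for the 10 KLF genes (x axis) in siNS (grey), siHP1γ (green) and siPRMT5 cells (blue), filled where the adjusted p was under 0.01 and the fold at least 1.5. KLF9 and KLF7 are filled above 0 in all 3 kinds of cells, and KLF2 lies below 0 in all 3 and is open in siNS cells.

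The question whether HP1γ or PRMT5 changes these Dex responses was put as an interaction, the Dex response in depleted cells minus that in siNS cells, called at an adjusted p under 0.05. For siHP1γ, 0 of the 10 genes had a larger response and 1 a smaller one, beside 0.118% and 0.281% of all genes. DESeq2 gave the same counts, and by edgeR 0 had a larger and 2 a smaller response at an unadjusted p under 0.05, as 17.2% of all genes had a response that differed at that p. The gene with the smaller response was KLF9, whose log2 response was 0.69 smaller (log2 -0.69, standard error 0.141, adjusted p = 0.0229). The call was lost when siNS Eth replicate 1 (log2 -0.71, adjusted p = 0.0609) or 3 (-0.63, 0.114), siNS Dex replicate 1 (-0.70, 0.0505) or 3 (-0.61, 0.106), or siHP1γ Eth replicate 2 (-0.63, 0.0757) or 3 (-0.69, 0.0652) was left out. KLF7 had a log2 response 0.52 lower in siHP1γ than in siNS cells (log2 -0.52, standard error 0.162, adjusted p = 0.116), not past the threshold.

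For siPRMT5, 1 of the 10 genes had a larger response and 0 a smaller one, beside 1.58% and 2.23% of all genes. DESeq2 gave the same counts, and by edgeR 2 had a larger and 2 a smaller response at an unadjusted p under 0.05, as 19.0% of all genes had a response that differed at that p. The gene with the larger response was KLF7, with a log2 response 0.97 larger than in siNS cells (standard error 0.169, adjusted p = 0.00144), and the value stayed between 0.90 and 1.03 with each of the 18 libraries left out. KLF9 had a difference of 0.30 (standard error 0.140, adjusted p = 0.248), KLF2 one of -0.54 (standard error 0.229, adjusted p = 0.191) and KLF10 one of -0.34 (standard error 0.103, adjusted p = 0.0651), none past the threshold. The KLF10 value passed without siHP1γ Dex replicate 1 (-0.33, adjusted p = 0.0495). The interactions share the siNS libraries.

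Without hormone, HP1γ depletion raised 2 of the 10 genes (KLF5 and KLF7) and lowered 2 (KLF4 and KLF6), at an adjusted p under 0.05 with no fold limit, beside 16.5% and 15.2% of all genes. With Dex it raised 2 (KLF5 and KLF11) and lowered 4 (KLF3, KLF4, KLF6 and KLF9), beside 11.7% and 12.3%. KLF4 had 109.95, 107 and 115 CPM in siNS Eth against 78.4, 74.9 and 82.5 CPM in siHP1γ Eth, and 119.5, 123 and 135 CPM in siNS Dex against 94.2, 93.5 and 94.9 CPM in siHP1γ Dex, with no overlap. The log2 change of KLF4 was -0.49 with Eth (standard error 0.0689, adjusted p = 5.34e-06) and -0.42 with Dex (standard error 0.0676, adjusted p = 4.77e-05). KLF6 changed by -0.52 with Eth (standard error 0.0665, adjusted p = 1.39e-06) and by -0.43 with Dex (standard error 0.0657, adjusted p = 2.18e-05), and none of its libraries overlapped. KLF9 passed with Dex (log2 -0.76, standard error 0.0838, adjusted p = 1.93e-07), while with Eth its log2 difference was -0.07 (95% interval -0.32 to 0.17).

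KLF5 moved the other way. It had 26.6, 28.7 and 26.5 CPM in siNS Eth and 38.4, 36.9 and 39.5 CPM in siHP1γ Eth, a 1.40-fold increase (log2 0.49, standard error 0.0982, adjusted p = 0.000421). With Dex the siHP1γ libraries had 41.2, 37.9 and 35.3 CPM against 31.2, 28.0 and 31.6 CPM, which do not overlap (log2 0.33, standard error 0.0958, adjusted p = 0.0123). The Dex call of KLF5 was lost without siHP1γ Dex replicate 1 (log2 0.27, adjusted p = 0.0598) or siNS Dex replicate 2 (log2 0.27, adjusted p = 0.0786).

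The smaller HP1γ calls depended on single libraries. KLF11 with Dex (log2 0.40, standard error 0.121, adjusted p = 0.0166) was lost without siNS Dex replicate 2 (log2 0.30, adjusted p = 0.116). KLF3 with Dex (log2 -0.25, standard error 0.0846, adjusted p = 0.0308) was lost without siNS Dex replicate 1 (log2 -0.24, adjusted p = 0.0874) or 3 (-0.21, 0.128) and without siHP1γ Dex replicate 2 (-0.21, 0.116) or 3 (-0.25, 0.0595), as it was with library size in place of TMM (-0.17, 0.1498) and with these 6 libraries alone (-0.25, 0.0530). KLF3 with Eth (log2 -0.21, adjusted p = 0.0648) passed instead without siHP1γ Dex replicate 1 (-0.21, 0.0434), siNS Eth replicate 2 (-0.25, 0.0458) or 3 (-0.27, 0.0399), siNS Dex replicate 2 (-0.23, 0.0465), or siPRMT5 Eth replicate 2 (-0.23, 0.0382) or 3 (-0.22, 0.0458), and with these 6 libraries alone (-0.22, 0.0280). KLF7 with Eth (log2 0.35, standard error 0.126, adjusted p = 0.0362) was lost without siHP1γ Eth replicate 1 (0.29, 0.145) or 3 (0.34, 0.0857), siNS Eth replicate 2 (0.29, 0.130) or 3 (0.31, 0.134), or siPRMT5 Eth replicate 1 (0.33, 0.0522) or 2 (0.33, 0.0530), by DESeq2 (0.35, 0.0573) and without a filter on low counts (0.36, 0.0596). KLF7 with Dex (log2 -0.17, adjusted p = 0.233) passed without siHP1γ Dex replicate 1 (-0.30, 0.0363), and KLF2 with Eth (log2 0.37, adjusted p = 0.0709) passed without that library too (0.36, 0.0467). The share of higher genes among all calls of siHP1γ cells moved from 52.1% to 63.8% with Eth and from 48.7% to 69.2% with Dex when library size replaced TMM. Under that scaling KLF2 (0.43, 0.0369) and KLF10 (0.24, 0.0129) passed with Eth. No KLF value that passed the threshold changed sign under any alternative.

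PRMT5 depletion without hormone raised 2 of the 10 genes (KLF2 and KLF10) and lowered 3 (KLF5, KLF6 and KLF11), beside 20.6% and 21.6% of all genes. With Dex it raised 2 (KLF7 and KLF9) and lowered 3 (KLF5, KLF6 and KLF11), beside 20.6% and 21.9%. KLF11 had the largest of these changes. Against 19.4, 17.7 and 18.6 CPM in siNS Eth stood 12.02, 7.28 and 8.20 CPM in siPRMT5 Eth, and against 18.2, 15.3 and 20.1 CPM in siNS Dex stood 7.04, 7.89 and 6.79 CPM in siPRMT5 Dex. No library overlapped, and replicate 1 of siPRMT5 Eth was above the other 2. The log2 change was -1.02 with Eth (standard error 0.142, adjusted p = 2.16e-06) and -1.30 with Dex (standard error 0.143, adjusted p = 5.55e-08), which is 2.02-fold and 2.46-fold lower.

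KLF2 was 1.83-fold higher in siPRMT5 Eth than in siNS Eth (log2 0.87, standard error 0.151, adjusted p = 3.96e-05), and with Dex the log2 difference was 0.33 (adjusted p = 0.122). KLF10 was 1.42-fold higher with Eth (79.5, 85.6 and 91.5 CPM against 58.9, 59.7 and 61.6 CPM, log2 0.51, standard error 0.0737, adjusted p = 3.73e-06). With Dex, KLF10 had 77.2, 83.8 and 73.7 CPM against 70.8, 66.9 and 70.9 CPM (log2 0.17, adjusted p = 0.0599), and passed by DESeq2 (0.19, 0.0483), with DESeq2's size factors (0.19, 0.0445), with library size alone (0.19, 0.0409) and without siHP1γ Dex replicate 1 (0.18, 0.0407), siPRMT5 Eth replicate 3 (0.18, 0.0483) or siPRMT5 Dex replicate 3 (0.22, 0.0336). KLF5 was lower by a similar amount in both settings, with a log2 change of -0.38 with Eth (standard error 0.105, adjusted p = 0.00481) and -0.37 with Dex (standard error 0.101, adjusted p = 0.00418). KLF6 changed by -0.34 with Eth (standard error 0.0663, adjusted p = 0.000205) and by -0.49 with Dex (standard error 0.0658, adjusted p = 1.35e-06).

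KLF7 and KLF9, which rose with Dex, were higher in siPRMT5 Dex than in siNS Dex. KLF7 was 1.56-fold higher (log2 0.65, standard error 0.0982, adjusted p = 7.67e-06) and KLF9 1.27-fold (log2 0.35, standard error 0.0814, adjusted p = 0.00113), and the libraries did not overlap for either gene. With Eth, KLF7 was lower in siPRMT5 cells (log2 -0.32, adjusted p = 0.0623), a value that passed without siHP1γ Dex replicate 1 (-0.33, 0.0363) or 2 (-0.33, 0.0458), and KLF9 differed by 0.05 (95% interval -0.20 to 0.30). KLF4 stood at 109, 107 and 117 CPM in siPRMT5 Eth and at 132, 129 and 124 CPM in siPRMT5 Dex, which overlap the siNS libraries of the same treatment. The log2 difference of KLF4 was 0.01 with Eth (95% interval -0.14 to 0.16).

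**Figure D4:**
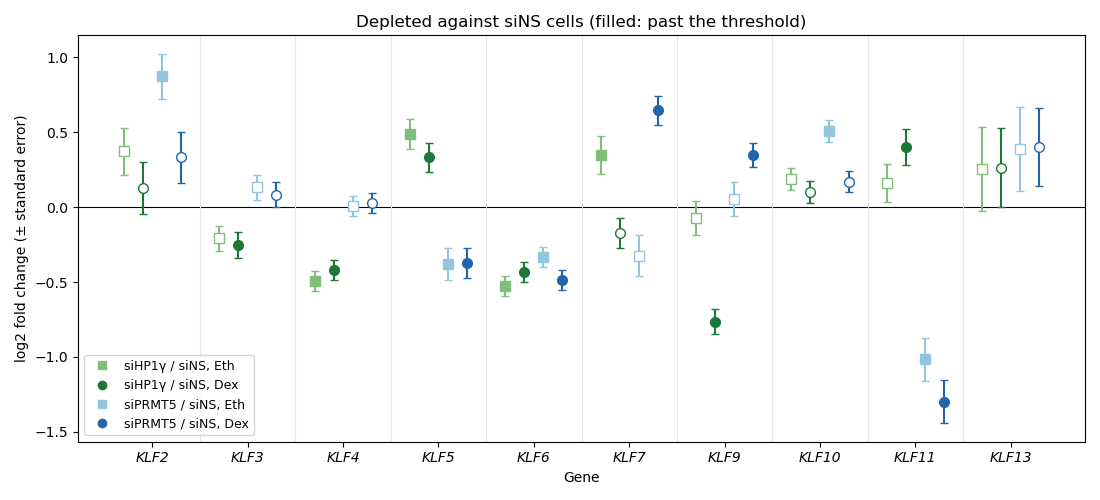
Log2 fold change of depleted against siNS cells (y axis, ± standard error derived from the edgeR F statistic) for the 10 KLF genes (x axis), with siHP1γ in green and siPRMT5 in blue, light squares for Eth and dark circles for Dex, filled where the adjusted p was under 0.05. KLF5 lies above 0 in siHP1γ and below 0 in siPRMT5 cells, KLF6 lies below 0 in all 4 comparisons, and KLF11 is lowest in siPRMT5 cells.

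The depletions were also set against each other directly, a comparison in which 48.4% of all genes passed with Eth and 49.9% with Dex. With Eth, 5 genes were higher in siPRMT5 than in siHP1γ cells (KLF2, KLF3, KLF4, KLF6 and KLF10) and 3 were lower (KLF5, KLF7 and KLF11), beside 23.4% and 25.0% of all genes. With Dex, 4 were higher (KLF3, KLF4, KLF7 and KLF9) and 2 were lower (KLF5 and KLF11), beside 24.4% and 25.5%. KLF11 differed by log2 -1.18 with Eth (standard error 0.139, adjusted p = 1.18e-07) and -1.70 with Dex (standard error 0.138, adjusted p = 1.60e-10), and KLF5 by -0.87 (standard error 0.101, adjusted p = 1.05e-07) with Eth and by -0.70 with Dex (standard error 0.0985, adjusted p = 1.60e-06). KLF4 was higher by 0.50 (standard error 0.0690, adjusted p = 1.46e-06) with Eth and by 0.45 with Dex (standard error 0.0676, adjusted p = 4.77e-06). KLF7 differed by -0.67 with Eth (standard error 0.132, adjusted p = 0.000149) and by 0.82 with Dex (standard error 0.0987, adjusted p = 1.59e-07), so its order turned with the treatment. KLF9 differed by 1.11 with Dex (standard error 0.0835, adjusted p = 3.80e-11) and by 0.13 with Eth (95% interval -0.12 to 0.37).

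KLF6 was 1.14-fold higher in siPRMT5 Eth than in siHP1γ Eth (log2 0.19, standard error 0.0666, adjusted p = 0.0218), although 1 library of each overlapped. That call was lost without siHP1γ Eth replicate 1 (0.17, 0.0727) or 2 (0.16, 0.0863), siPRMT5 Eth replicate 1 (0.18, 0.0523) or 3 (0.17, 0.0726), with library size alone (0.15, 0.0712) and without a filter on low counts (0.19, 0.0505). KLF3 was 1.27-fold higher in siPRMT5 Eth (log2 0.34, standard error 0.0852, adjusted p = 0.00177) and 1.26-fold in siPRMT5 Dex (log2 0.34, standard error 0.0844, adjusted p = 0.00177).

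Over the 18 libraries the 10 genes varied by different amounts. The ratio of the highest to the lowest condition mean was 9.51 for KLF9, 5.42 for KLF7, 3.28 for KLF11, 2.58 for KLF2, 2.07 for KLF6 and 1.27 for KLF3. The log2 CPM of KLF7 and KLF9 had a Pearson r of 0.949, KLF5 and KLF11 one of 0.834, and KLF2 and KLF6 one of -0.80. The 18 points are 3 replicates of each of 6 conditions and share those conditions, so these values describe the pattern of condition means. Among 11410 genes that averaged 5 CPM or more, the pattern of KLF9 was closest to TXNIP (r = 0.995, an inhibitor of thioredoxin), MT1E (0.992) and MT2A (0.992, metallothioneins). The metallothioneins are near-identical copies, and the counting could split their reads. TXNIP had mean levels of 327, 952, 313, 723, 334 and 1143 CPM in siNS, siHP1γ and siPRMT5 cells, with Eth before Dex in each. The pattern of KLF7 was closest to SLC7A2 (r = 0.988, an arginine transporter), FBLN5 (0.987, an extracellular matrix protein) and S1PR3 (0.984, a sphingosine-1-phosphate receptor). That of KLF11 was closest to TMEM200B (0.979), ARFGAP3 (0.975) and ANKRD40 (0.973).

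Promoter windows from RefSeq on GRCh38.p14, 250 bases before to 50 bases after a start, were found for 8 of the 10 genes, 13 windows in all, since KLF5, KLF7 and KLF11 have several. The windows were searched on both strands for the GC box GGGCGG and the box CACCC that KLF proteins bind, for the E-box CACGTG, for the GR half-site AGAACA and for the TATA box TATAAA. The GC box was in 8 of the 13 windows and in 44.9% of 34943 windows of all genes, the CACCC box in 7 and in 59.8%, the E-box in 4 and in 7.23%, the half-site in 2 and in 14.8%, and the TATA box in 1 and in 11.6%. KLF9, which rose most with Dex, had none of the 5 motifs in its window and 32.7% G and C. KLF2, which fell, had 6 GC boxes and 80.7% G and C, and the KLF7 window with the half-site had 4 GC boxes and 70.0% G and C. The other 3 windows of KLF7 had 0 GC boxes and 42.7%, 43.0% and 56.7% G and C, so the windows of that 1 gene span much of the range between KLF9 and KLF2. KLF11 (2 and 7 GC boxes), KLF13 (3) and KLF5 (0 and 2) had no called Dex response. KLF4 (4 GC boxes) and KLF6 (2) were higher with Dex in all cells, past the threshold only for KLF6 in siHP1γ cells. Whether the content of a window bears on the Dex response was not tested. The windows below are printed on the strand of the gene, with GC boxes, CACCC boxes and GR half-sites in capitals. They are that of KLF9 at chr9:70414608-70414907, that of KLF7 at chr2:207166807-207167106 and that of KLF2 at chr19:16324576-16324875.
KLF9: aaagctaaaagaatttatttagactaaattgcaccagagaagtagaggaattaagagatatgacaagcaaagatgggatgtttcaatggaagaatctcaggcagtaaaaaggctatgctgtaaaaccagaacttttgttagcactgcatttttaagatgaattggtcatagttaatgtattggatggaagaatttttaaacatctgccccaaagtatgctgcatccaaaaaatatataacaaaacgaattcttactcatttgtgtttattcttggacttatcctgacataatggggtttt
KLF7: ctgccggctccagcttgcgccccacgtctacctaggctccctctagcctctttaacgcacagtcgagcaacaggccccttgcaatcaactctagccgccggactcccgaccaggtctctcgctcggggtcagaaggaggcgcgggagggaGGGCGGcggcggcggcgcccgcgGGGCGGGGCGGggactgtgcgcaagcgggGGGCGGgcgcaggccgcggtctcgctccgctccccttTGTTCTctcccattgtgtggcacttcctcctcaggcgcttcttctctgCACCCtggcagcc
KLF2: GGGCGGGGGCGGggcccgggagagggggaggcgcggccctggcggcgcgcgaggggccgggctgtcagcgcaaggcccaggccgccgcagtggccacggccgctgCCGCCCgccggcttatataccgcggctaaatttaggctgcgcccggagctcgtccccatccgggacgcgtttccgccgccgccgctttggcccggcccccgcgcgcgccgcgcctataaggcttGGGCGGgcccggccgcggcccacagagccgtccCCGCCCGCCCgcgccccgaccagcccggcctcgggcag

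Of the other KLF genes (KLF1, KLF8, KLF12, KLF14, KLF15, KLF16, KLF17 and KLF18), 5 of 8 were tested, and KLF15 was the 1 called with Dex. It was raised in siNS, siHP1γ and siPRMT5 cells, beside 1.65%, 1.01% and 2.69% of all genes. KLF15, a GC-induced factor of amino acid and lipid metabolism, was at 5.56 ± 0.794 CPM in siNS Eth and 9.25 ± 1.73 CPM in siNS Dex, and at 4.10 ± 0.0158 and 16.5 ± 1.15 CPM in siPRMT5 cells. Its log2 change with Dex was 0.74 in siNS cells (standard error 0.151, adjusted p = 0.00150), 0.88 in siHP1γ cells (standard error 0.163, adjusted p = 0.000673) and 2.01 in siPRMT5 cells (standard error 0.1497, adjusted p = 8.99e-11). The siPRMT5 response was larger than that of siNS cells by 1.27 (standard error 0.219, adjusted p = 0.00135), as for KLF7. The siNS call was lost without siNS Eth replicate 1 (adjusted p = 0.0161) or siNS Dex replicate 1 (adjusted p = 0.0269). KLF15 was higher in siPRMT5 Dex than in siNS Dex (log2 0.82, adjusted p = 9.81e-06) and than in siHP1γ Dex (log2 1.17, adjusted p = 4.98e-08). It was lower in siHP1γ Eth (log2 -0.49, adjusted p = 0.0354) and siPRMT5 Eth (log2 -0.44, adjusted p = 0.0477) than in siNS Eth, calls that were lost in 5 and 11 of the 18 fits that left out a library (adjusted p 0.0532 to 0.158 and 0.0501 to 0.208) and by DESeq2 (adjusted p = 0.0735 and 0.111). KLF12, a repressor that recruits CtBP, had a smaller Dex response in siPRMT5 than in siNS cells (log2 -0.58, adjusted p = 0.0413), lost in 13 of the 18 such fits (adjusted p 0.0506 to 0.138). KLF17 rests on few counts, 4, 2 and 2 in siPRMT5 Dex against 14, 8 and 9 in siNS Dex (adjusted p = 0.00717) and 8, 11 and 12 in siHP1γ Dex (adjusted p = 0.00849, and 0.0516 without siPRMT5 Dex replicate 2). KLF14 rests on few counts too, 2, 1 and 3 in siPRMT5 Eth against 12, 14 and 8 in siHP1γ Eth (adjusted p = 0.00137), and at such counts no fold is given for either gene. KLF16 was lower in siPRMT5 than in siHP1γ Eth (log2 -0.35, adjusted p = 0.0216), and the call was lost without siPRMT5 Eth replicate 1 (adjusted p = 0.0590) or 2 (0.0909) or siHP1γ Eth replicate 3 (0.162).

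SP genes encode the sister family that binds the same GC boxes. Of 9, 6 were tested, and 0 passed with Dex in any of the cells by edgeR or DESeq2. By edgeR, 2.71%, 1.67% and 5.44% of all genes passed in siNS, siHP1γ and siPRMT5 cells. In each of the 3 kinds of cells 1 SP gene had an unadjusted p under 0.05 by edgeR, beside 3420, 2753 and 4078 of the 15298 genes. In siHP1γ Eth, SP6 (log2 0.57, adjusted p = 0.0194) and SP2 (log2 0.34, adjusted p = 0.00855) were higher than in siNS Eth. The SP6 call was lost without siNS Eth replicate 1 (adjusted p = 0.0767) or siHP1γ Eth replicate 1 (0.137), and the SP2 call without siNS Eth replicate 3 (0.0753) or siHP1γ Eth replicate 3 (0.0541). In siPRMT5 cells SP6 was lower than in siNS cells with Eth (log2 -0.88, adjusted p = 0.00244) and with Dex (log2 -1.33, adjusted p = 6.14e-06), and SP4 was higher with Eth (log2 0.55, adjusted p = 0.000311) and with Dex (log2 0.79, adjusted p = 2.46e-06). Against siHP1γ cells, siPRMT5 cells had less SP6 with Eth (log2 -1.45, adjusted p = 2.55e-06) and with Dex (log2 -1.25, adjusted p = 9.72e-06), and more SP4 with Eth (log2 0.50, adjusted p = 0.000602) and with Dex (log2 0.54, adjusted p = 0.000182).

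All 17 genes of KLF cofactors and regulators were tested. Dex lowered 2 in siPRMT5 cells, beside 2.75% of all genes, MEF2D (log2 -0.76, adjusted p = 1.63e-06) and MEF2C (log2 -0.71, adjusted p = 0.00274), which encode activators of KLF2 transcription. By edgeR and by DESeq2, 0 of the 17 passed with Dex in siNS or siHP1γ cells, where 2.71% and 1.67% of all genes passed by edgeR. There, 4 and 5 of the 17 had an unadjusted p under 0.05 by edgeR, beside 3420 and 2753 of the 15298 genes. The MEF2C call was lost without siPRMT5 Eth replicate 2 (adjusted p = 0.0220) or 3 (0.0147) or siPRMT5 Dex replicate 1 (0.0257) or 3 (0.0127). MEF2D had a lower Dex response in siPRMT5 than in siNS cells (log2 -0.80, adjusted p = 0.00142). Without hormone, PRMT5 depletion raised 10 of the 17 and lowered 1, beside 20.6% and 21.6% of all genes, with the largest changes in MEF2C (log2 1.18, adjusted p = 5.84e-06) and MEF2D (log2 0.64, adjusted p = 7.50e-06). HP1γ depletion without hormone raised 5 and lowered 1, beside 16.5% and 15.2% of all genes, and 31.8% of all genes passed in either direction. The largest changes were in EP300, the gene of p300 (log2 0.68, adjusted p = 5.85e-05), and MEF2D (log2 0.67, adjusted p = 7.39e-06). With Dex, PRMT5 depletion raised 7 and lowered 2, beside 20.6% and 21.9%, with the largest changes in FBXW7, a ubiquitin ligase that targets KLF proteins (log2 0.62, adjusted p = 6.06e-07), and CREBBP, the gene of CBP (log2 0.49, adjusted p = 0.000143). HP1γ depletion with Dex raised 4 and lowered 3, beside 11.7% and 12.3%, with the largest changes in MEF2C (log2 0.58, adjusted p = 0.0182) and the ubiquitin ligase WWP1 (log2 0.58, adjusted p = 2.23e-05), and the MEF2C call was lost without siNS Dex replicate 1 (adjusted p = 0.0622) or 3 (0.0788) or siHP1γ Dex replicate 3 (0.0751). In siPRMT5 against siHP1γ Eth, 6 were higher and 1 lower, beside 23.4% and 25.0%, with MAPK7 (log2 0.58, adjusted p = 5.47e-06) and MEF2C (log2 0.57, adjusted p = 0.00466) the largest. In siPRMT5 against siHP1γ Dex, 6 were higher and 4 lower, beside 24.4% and 25.5%, with MEF2A (log2 -0.60, adjusted p = 4.03e-05) and SAP30 (log2 0.59, adjusted p = 0.000211) the largest.

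Among 8 genes known as KLF targets, 0 passed with Dex in siNS or in siHP1γ cells by edgeR or DESeq2. By edgeR, 2.71% and 1.67% of all genes passed there. At an unadjusted p under 0.05 by edgeR there were 2 and 3 of the 8, beside 3420 and 2753 of the 15298 genes. The 2 in siNS cells were CCND1 (log2 -0.45, adjusted p = 7.85e-05) and PDGFA (log2 0.51, adjusted p = 0.00441). Their adjusted p was under 0.01 and their fold under the 1.5 asked for, as for CCND1 in siPRMT5 cells (log2 -0.55, adjusted p = 2.13e-06). In siPRMT5 cells Dex raised 1 of the 8 and lowered 1, beside 2.69% and 2.75% of all genes. The raised gene was S1PR1, a sphingosine-1-phosphate receptor that KLF2 activates in T cells (log2 2.30, standard error 0.209, adjusted p = 4.05e-09). The lowered gene was SMAD7, an inhibitor of TGF-β signalling that KLF11 represses (log2 -1.32, standard error 0.301, adjusted p = 0.00248). SMAD7 rests on few counts, 28, 36 and 36 in siPRMT5 Eth against 18, 18 and 9 in siPRMT5 Dex, with 14, 15 and 28 in siNS Eth. S1PR1 was at 2.45 ± 0.697 CPM in siPRMT5 Eth and 12.3 ± 1.03 CPM in siPRMT5 Dex, beside 3.66 ± 0.482 and 4.41 ± 0.469 CPM in siNS cells. Its Dex response was larger in siPRMT5 than in siNS cells by 2.02 (standard error 0.317, adjusted p = 0.000483). The SMAD7 call was lost without siPRMT5 Eth replicate 2 (adjusted p = 0.0179) or siPRMT5 Dex replicate 2 (0.0110) or 3 (0.0179). CDKN1A, the gene of the cell cycle inhibitor p21, was higher in siHP1γ Eth than in siNS Eth (log2 0.52, adjusted p = 1.20e-05) and lower in siPRMT5 than in siHP1γ cells with Eth (log2 -0.97, adjusted p = 2.54e-10) and with Dex (log2 -0.72, adjusted p = 3.50e-08). CCND1, the gene of cyclin D1, was higher in siPRMT5 than in siHP1γ Eth (log2 0.91, adjusted p = 1.31e-10). BIRC5, the gene of survivin, was lower in siHP1γ than in siNS cells with Eth (log2 -0.47, adjusted p = 3.24e-05) and with Dex (log2 -0.38, adjusted p = 0.000457). THBD, the gene of thrombomodulin and a KLF2 target of endothelial cells, was higher in siPRMT5 than in siNS cells with Eth (log2 0.91, adjusted p = 7.46e-07) and with Dex (log2 0.56, adjusted p = 0.000247). S1PR1 was higher in siPRMT5 Dex than in siNS Dex (log2 1.46, adjusted p = 4.40e-07) and than in siHP1γ Dex (log2 1.10, adjusted p = 9.61e-06). SMAD7 was higher in siPRMT5 Eth than in siNS Eth (log2 0.85, adjusted p = 0.0199), lost in 3 of the 18 fits that left out a library (adjusted p 0.0830 to 0.0981). PDGFA was lower in siHP1γ Dex than in siNS Dex (log2 -0.36, adjusted p = 0.0218), lost in 4 of the 18 (adjusted p 0.0722 to 0.107). Other members were called too. HP1γ depletion raised 1 of the 8 and lowered 2 with Eth, beside 16.5% and 15.2% of all genes. With Dex it raised 1 and lowered 2, beside 11.7% and 12.3%. PRMT5 depletion raised 4 and lowered 1 with Eth, beside 20.6% and 21.6%, and with Dex, beside 20.6% and 21.9%. Against siHP1γ cells, siPRMT5 cells had 3 higher and 2 lower with Eth, beside 23.4% and 25.0%. With Dex it was 4 and 1, beside 24.4% and 25.5%.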

How the data were processed

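The 18 RNA-seq libraries of MDA-MB-231 cells were put into 6 conditions by the labels of each sample, which also number the replicates. The study calls its replicates biological, and p-values measure the spread between them. Lexogen kits and a NextSeq instrument were used by the authors, who mapped reads to hg38 with Bowtie2 2.4.2 and counted them with HTSeq 0.9.1. The authors deposited raw counts per gene symbol for each library, whole numbers without normalization. A table of the authors' own DESeq2 (2.11.40.7) comparisons holds fold changes and adjusted p-values and was not used. The strand setting and gene annotation are not given in the sources used here. Bowtie2 does not split reads over introns, so reads across exon junctions can be lost, and reads of overlapping genes or pseudogenes can be miscounted. Of the 8 pseudogenes of KLF2, KLF3, KLF4 and KLF7 listed, 7 had 0 counts in all libraries, and KLF3P1 had 2 to 8.

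From the counts, genes were kept by filterByExpr, scaled by TMM and fitted in 1 quasi-likelihood model of all 18 libraries with 12 residual degrees of freedom (edgeR 4.0.16, R 4.3.3). Adjusted p-values are Benjamini-Hochberg over the 15298 genes. Dex responses were called at an adjusted p under 0.01 and a fold of at least 1.5, the other comparisons at an adjusted p under 0.05. In parentheses that follow a named library or setting, the first value is the log2 fold change and the second the adjusted p. Overlap between groups was judged on CPM. Comparisons share libraries, and the labels give no batch. The script was tested on simulated counts. GENCODE 44 gave positions and exonic lengths, and RefSeq gave promoter windows. The alternatives were DESeq2 1.42.0, DESeq2's size factors, library size alone, no filter, the replicate number as a block, a minimum of 10 counts in every library, only the libraries compared, a fold of at least 2, and each library left out in turn.

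The 10 genes and the lists were chosen with earlier results of these data known. Named were all 10 genes in each comparison, and of each list the 2 largest called changes per comparison. CCND1 and PDGFA were also named where only the fold limit kept their Dex change from being called. Likeness was sought for KLF9 and the other 2 genes with the widest range of condition means, as the 3 highest correlations of log2(CPM + 0.5) over 18 libraries.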

Additional observations from a re-analysis of the deposited data

Results flagged for a closer look

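A pair of KLF genes had a Dex response in depleted cells that differed from the one in siNS cells by the interaction test. For KLF9 in siHP1γ cells the log2 response was 2.13 against 2.82 in siNS cells, a difference of -0.69 (adjusted p = 0.0229 by edgeR, 95% interval -0.998 to -0.383), and the call was lost in 6 of the 18 fits that left out a library, with an adjusted p of up to 0.114. For KLF7 in siPRMT5 cells it was 2.43 against 1.47, a difference of 0.97 (adjusted p = 0.00144, 95% interval 0.600 to 1.34), with an adjusted p of at most 0.00833 in the 18 fits that left out a library. The Eth levels of KLF9 overlapped between siHP1γ and siNS cells, while those of KLF7 in siPRMT5 cells were below those in siNS cells without overlap.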

How the results depend on the processing

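The 10 genes in 11 comparisons give 110 values, of which 45 passed the threshold. These kept their sign under every alternative that refits the data, and of 1134 recomputed values 1097 also kept their call, the fold limit of 2 counted for the Dex comparisons only. The 37 that lost it were named beside the results, except where the fold limit of 2 removed KLF2, KLF6 and KLF7 in siHP1γ cells. The 65 values not past the threshold gave 1646 recomputed values, of which 21 passed it. KLF9 in siPRMT5 against siNS with Eth, near 0, ranged from -0.0306 to 0.146 with 1 library left out and turned negative without siNS Eth replicate 3 (-0.000598) or siPRMT5 Eth replicate 3.

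The KLF count for Dex in siHP1γ cells fell from 4 to 1 at a fold of at least 2. Leaving out 1 library gave 0 to 1 KLF genes for the siHP1γ interaction and 1 to 2 for the siPRMT5 interaction. Over all genes, the siHP1γ interaction went from 61 calls to 314 by DESeq2 and 374 without a filter, and to 20 to 186 with 1 library left out, and the siPRMT5 interaction went from 582 to 319 to 897. A fold of at least 2 left 194 of 414 genes for Dex in siNS, 106 of 255 in siHP1γ and 373 of 832 in siPRMT5 cells, since fewer pass a stricter limit. The cause of the other changes was not tested.

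Same-numbered replicates had a median correlation of deviations of 0.0125, with 10 of 45 pairs over 0.1, beside 10 of 90 differently numbered pairs, and 11 of 18 libraries were closest to one of their own number. Not every pair was over 0.1, so the number was not taken to pair samples, though the 11 of 18 is a hint of shared deviation in some. With the replicate block the siHP1γ interaction had 94 calls, KLF7 in siPRMT5 Eth passed (log2 -0.32, adjusted p = 0.0456), and no other of the 110 KLF values changed its call. Among list genes, 70 of 1324 recomputed values lost their call and 0 changed sign. Depth limits KLF13 and KLF2 most.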
